A study of Homo sapiens with 6 samples.

Results

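The 8 lysosomal lipid genes LIPA, NPC1, NPC2, GLA, HEXA, ASAH1, SMPD1 and LAMP1, were followed in A172 cells, an established human glioblastoma line, after transfection of miR-324 duplexes. They were picked by symbol as hydrolases, exporters and a membrane protein of the lysosome, around LIPA, whose low level with the 5p duplex in these same libraries led to the choice. All 8 were among the 20979 gene symbols listed in the series, and all 8 passed the minimum for testing, a mean over the 6 libraries of 1 TPM (a level scaled by transcript length and library size), as did 13400 symbols in all. Cells received the duplex of miR-324-5p (5p duplex), that of miR-324-3p.1 (3p.1 duplex) or, as the third group, control miRNA (control), with a lipid reagent, and RNA was taken 1 day later. Each of the 3 groups had 2 libraries (n = 2 throughout). All groups were the same line, without other alleles or agents in the labels, and nothing in the labels says that replicates were separate cultures, so p-values measure the spread between these libraries, which may be technical. The duplexes are named for the hairpin arms; which strand acted was not measured. The files hold no read numbers, so depth is unknown.

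Lysosomes break down lipids that arrive with lipoproteins and membranes. Lysosomal acid lipase, the product of LIPA, frees cholesterol and fatty acids from cholesteryl esters and triglycerides, and NPC2 and NPC1 pass the freed cholesterol out of the lysosome. Sphingolipids are cut stepwise by hydrolases such as those encoded by GLA, HEXA, SMPD1 and ASAH1, and LAMP1 is an abundant glycoprotein of the limiting membrane. A microRNA lowers the RNAs it pairs with mainly through its seed, bases 2 to 8, which matches short sites in 3′UTRs.

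The seed of miR-324-5p and the places in the members that match it are shown because LIPA was the member with both the low level and a 7-base match. The mature strands come from RefSeq (GRCh38.p14, chromosome 17, minus strand), with the seed in capitals; the sequence of the transfected 3p.1 duplex was not given in the labels, so the RefSeq 3p strand stands for that arm and its start may differ from that of the duplex.
hsa-miR-324-5p: cGCAUCCCcuagggcauuggug
hsa-miR-324-3p: cCCACUGCcccaggugcugcugg
The perfect match to the 5p seed is GGGATGC, called an 8mer when an A follows it and a 7mer-m8 when it does not. GGATGCA, which lacks the first G but has the A, is a 7mer-A1, and GGATGC alone is a 6mer. LIPA (ENSG00000107798.17, chromosome 10, 89213569 to 89414557, minus strand, GENCODE 29 on GRCh38) held 1 7mer-A1 and 1 6mer in its 3′UTR of 1259 bases, and SMPD1 (ENSG00000166311.9, chromosome 11, 6390431 to 6394998, plus strand) held 1 6mer. They are written on the strand of the transcript, with the matching bases in capitals.
LIPA 7mer-A1, chr10:89213872-89213878: gtgatgttttcGGATGCAaactcagctca
LIPA 6mer, chr10:89214268-89214273: gccagtaataaGGATGCtaacaattaat
SMPD1 6mer, chr11:6394727-6394732: ctgggccccaaGGATGCcggggaaacag

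Both LIPA sites lay in exon 10 of 10, at bases 950 and 555 of the 3′UTR, and in each of the 3 coding transcripts with an annotated 3′UTR. The coding sequence of LIPA held another 6mer. In all, 1 of the 8 members (12.5%) had a 7mer or 8mer match to the 5p seed in its longest 3′UTR, where 14.6% of the 11748 genes with a 3′UTR had one. NPC1, NPC2, GLA, HEXA, ASAH1 and LAMP1 had no match in the longest 3′UTR. For NPC1 the longest was that of a 2-exon transcript; the 25-exon transcript had no match either, and another 2-exon transcript carried a 7mer-A1. GLA, whose 3′UTR was 6 bases long, carried a 7mer-A1 in the coding sequence. For the 3p strand, the one member with a 7mer in the longest 3′UTR was HEXA, with 3 matches to GCAGTGG in 3158 bases, which belongs to 1 of its 4 coding transcripts with a 3′UTR. NPC1 (in the 2-exon transcript), NPC2 and LAMP1 held a 6mer as best match there, while 1 other transcript of NPC1 and 1 of NPC2 carried a 7mer-A1. In the longest 3′UTR, 32.1% of all genes had a 7mer or 8mer for this strand. The HEXA match nearest the end of the transcript is printed below with its 7 matching bases in capitals (chromosome 15, minus strand). A match is a description of letters and not a measured site of action.
HEXA 7mer-m8, chr15:72341731-72341737: acaggtcaactGCAGTGGcctgcagttac

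LIPA stood far lower with the 5p duplex than with the 3p.1 duplex or control. Its level was 52.96 and 50.19 TPM with the 5p duplex, 165.28 and 192.86 TPM with the 3p.1 duplex, and 174.5 and 252.99 TPM in control. The 5p duplex libraries lay close together and below all 4 others, while the 3p.1 duplex libraries overlapped the control libraries. The mean of 51.6 ± 1.96 TPM with the 5p duplex (SD, n = 2) was 24.1% of the control mean of 214 ± 55.5 TPM and 28.8% of the mean of 179 ± 19.5 TPM with the 3p.1 duplex. On the log2(TPM + 1) scale, which understates the change of low genes, this was a difference of -2.01 (SE 0.180) for the 5p duplex against control and -1.77 (SE 0.180) for the 5p duplex against the 3p.1 duplex. These values chose the gene and carry no test here, and both comparisons rest on the same 5p duplex libraries. Among all 13400 genes LIPA had the 39th lowest log2 fold change against control and the 36th lowest against the 3p.1 duplex. The lowest were SNORA27 at -5.28 against control and SNORA31 at -5.46 against the 3p.1 duplex, both outside the 11748 genes with an annotated 3′UTR. For the 3p.1 duplex against control the log2 fold change of LIPA was -0.23 (SE 0.180, limma adjusted p = 0.889 over all genes), with a 95% confidence interval of -0.67 to 0.20. The sign depended on control replicate 2, without which the value was 0.033.

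**Figure D1:**
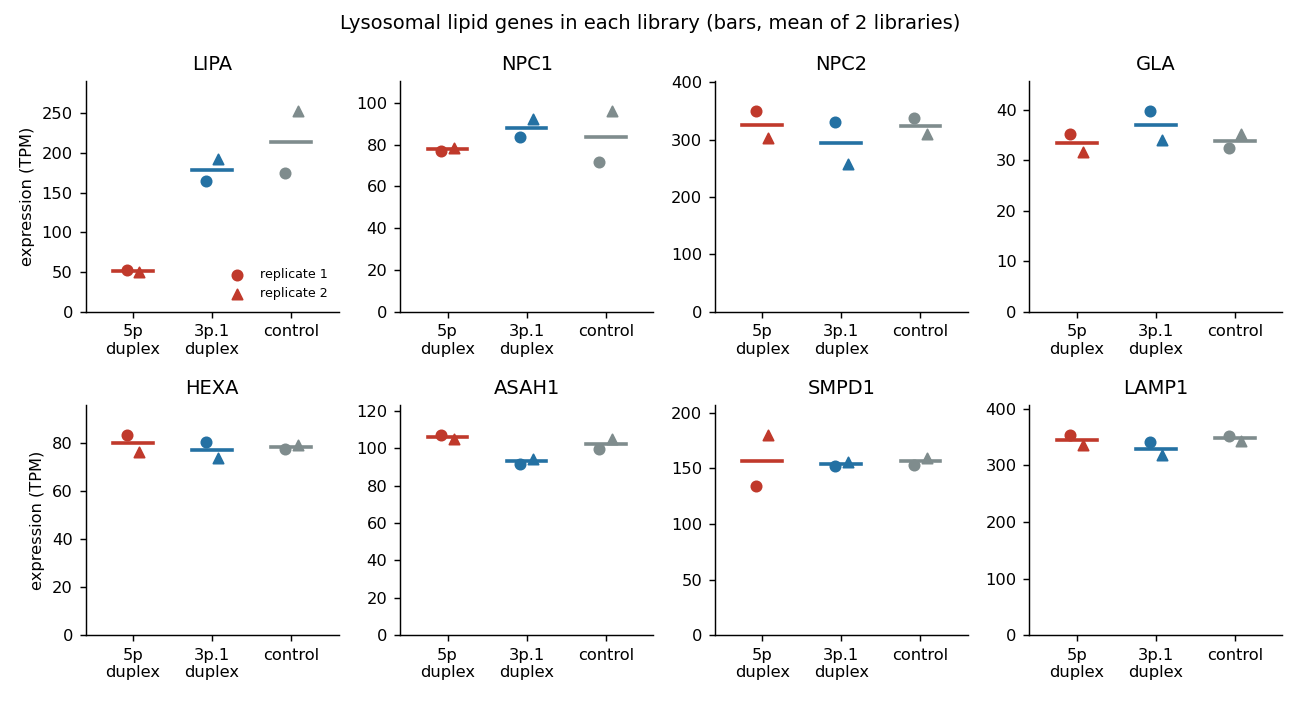
Level in TPM (vertical axes from 0) of each of the 8 genes in the 5p duplex, 3p.1 duplex and control libraries; circles are replicate 1, triangles replicate 2 and bars the mean of 2 libraries. LIPA is at 50.19 and 52.96 TPM with the 5p duplex and at 165.28 TPM or more in the other 4 libraries, while the other 7 genes stay within a narrow band.

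The 2 cholesterol exporters did not share the LIPA pattern. NPC1 (ENSG00000141458.12, chromosome 18, 23506184 to 23586898, minus strand), the membrane transporter that receives cholesterol in the lysosome, stood at 76.99 and 78.65 TPM with the 5p duplex, 83.75 and 92.27 TPM with the 3p.1 duplex, and 71.61 and 96.09 TPM in control. The 5p duplex libraries lay between the control libraries and just below both 3p.1 duplex libraries. The log2 fold change of NPC1 was -0.091 for the 5p duplex against control (95% confidence interval -0.44 to 0.26, limma adjusted p = 0.910) and -0.17 against the 3p.1 duplex (-0.53 to 0.18, adjusted p = 0.813). NPC2 (ENSG00000119655.10, chromosome 14, 74476192 to 74494177, minus strand), the soluble cholesterol carrier of the lysosome lumen, stood at 349.47 and 302.08 TPM with the 5p duplex, 330.65 and 257.55 TPM with the 3p.1 duplex, and 336.92 and 309.5 TPM in control. All 3 groups overlapped, and replicate 1 was the higher library in each. For NPC2 the log2 fold change was 0.0089 for the 5p duplex against control (-0.34 to 0.35, limma adjusted p = 0.994) and -0.15 for the 3p.1 duplex against control (-0.49 to 0.20, adjusted p = 0.936). These intervals leave out a change the size of that of LIPA, and they do not show that the genes stayed the same.

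The hydrolases of glycosphingolipids stood at nearly equal levels in the 3 groups. GLA (ENSG00000102393.10, chromosome X, 101397803 to 101408012, minus strand), which encodes alpha-galactosidase A, stood at 35.22 and 31.76 TPM with the 5p duplex, 39.79 and 34.14 TPM with the 3p.1 duplex, and 32.55 and 35.18 TPM in control. HEXA (ENSG00000213614.9, chromosome 15, 72340919 to 72376476, minus strand), the alpha subunit of beta-hexosaminidase, stood at 83.49 and 76.4 TPM with the 5p duplex, 80.66 and 73.74 TPM with the 3p.1 duplex, and 77.4 and 79.05 TPM in control. The groups overlapped for both genes in all 3 comparisons. With the 5p duplex against control the log2 fold change was -0.016 for GLA (95% confidence interval -0.30 to 0.26) and 0.030 for HEXA (-0.20 to 0.25), with limma adjusted p = 0.982 and 0.958. For HEXA, the member with 7mer matches to the 3p strand, the 3p.1 duplex against control gave -0.020 on the log2 scale (-0.25 to 0.20, limma adjusted p = 0.989). The annotation places a read-through gene, RPL36A-HNRNPH2, on the other strand across GLA, and it averaged 5.5 TPM. HEXA shares 35063 bases of its span with AC009690.1, annotated as protein coding on the same strand and not listed in the series. The part of such overlaps in the GLA and HEXA values was not tested.

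SMPD1, the acid sphingomyelinase, and ASAH1, the acid ceramidase that acts on its product, were apart from each other in how the libraries fell. SMPD1 stood at 134.05 and 180.19 TPM with the 5p duplex, 152.08 and 156.1 TPM with the 3p.1 duplex, and 153.21 and 159.58 TPM in control. Its 5p duplex libraries were the lowest and the highest of all 6, so the 6mer in its 3′UTR came with no common direction. The log2 fold change of SMPD1 for the 5p duplex against control was -0.0086 (95% confidence interval -0.35 to 0.33, limma adjusted p = 0.994). ASAH1 (ENSG00000104763.18, chromosome 8, 18055992 to 18084998, minus strand) stood at 107.09 and 104.97 TPM with the 5p duplex, 91.39 and 94.4 TPM with the 3p.1 duplex, and 99.39 and 104.8 TPM in control. Its groups did not overlap in any comparison, with the 5p duplex highest and the 3p.1 duplex lowest. The differences were small: log2 0.054 for the 5p duplex against control, -0.13 for the 3p.1 duplex against control and 0.19 for the 5p duplex against the 3p.1 duplex (95% confidence interval -0.0071 to 0.39), with limma adjusted p = 0.906, 0.841 and 0.557.

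LAMP1 (ENSG00000185896.10, chromosome 13, 113297241 to 113323672, plus strand), the membrane protein often used to mark lysosomes, stood at 354.12 and 335.9 TPM with the 5p duplex, 340.78 and 317.72 TPM with the 3p.1 duplex, and 352.29 and 343.23 TPM in control. It was the most abundant member in every library. The log2 fold change was -0.012 for the 5p duplex against control (95% confidence interval -0.21 to 0.19, limma adjusted p = 0.983) and -0.079 for the 3p.1 duplex against control (-0.28 to 0.12, adjusted p = 0.944).

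**Figure D2:**
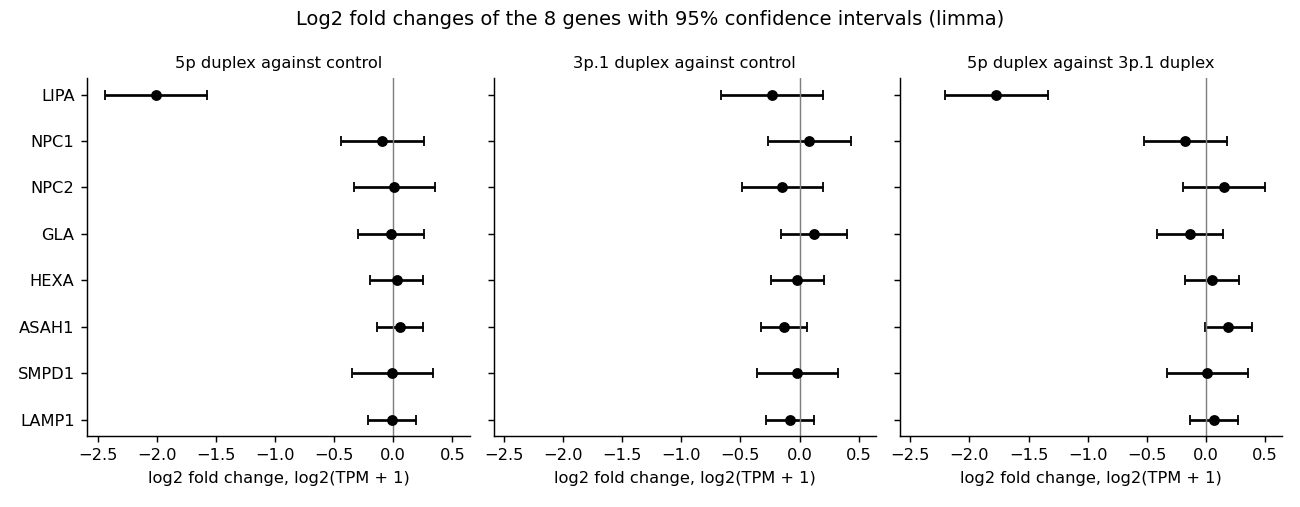
Log2 fold changes on the log2(TPM + 1) scale (horizontal axes) of the 8 genes in the 3 comparisons, with the limma estimate as a point and its 95% confidence interval as a bar. LIPA lies at -2.01 and -1.77 where the 5p duplex is compared, values that chose the gene, and the other 7 genes lie between -0.17 and 0.19 in all 3 comparisons with intervals that cross 0.

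Counted over the members, 1 of 8 (LIPA) was called lower and 0 higher by limma for the 5p duplex against control, at an adjusted p under 0.05 over all genes. Of the 13400 genes tested, 0.425% were called lower and 0.0373% higher, 0.463% in all. For the 5p duplex against the 3p.1 duplex it was again 1 of 8, LIPA, and lower, where 0.351% of all genes were called lower and 0.0821% higher, 0.433% in all. Nothing is read from these counts, since LIPA was chosen for that pattern. Without either 5p duplex library both counts were 0, and without either 3p.1 duplex library the count between the duplexes was 0. For the 3p.1 duplex against control limma called 0 of 8 members, with 0 at an unadjusted p under 0.05. Of all genes 0.00746% were called lower and 0.00746% higher in that comparison, 0.0149% in all, and 6.86% had an unadjusted p under 0.05. Groups did not overlap for 2 of 8 members (LIPA and ASAH1) with the 5p duplex against control, for 2 of 8 (ASAH1 and LAMP1) with the 3p.1 duplex against control, and for 3 of 8 (LIPA, NPC1 and ASAH1) between the duplexes; over all genes the share was 34.8%, 36.3% and 40.4%. The 7 members other than LIPA had median log2 fold changes of -0.0086, -0.021 and 0.050 in the 3 comparisons, beside medians over all genes of -0.030, -0.033 and 0.0055.

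The order of the members by level, which TPM allows since it is scaled by length, changed through LIPA. LIPA ranked 7 of 8 in both 5p duplex libraries, above only GLA, and 3 of 8 in each 3p.1 duplex and control library, below LAMP1 and NPC2. It supplied 4.44% and 4.33% of the summed TPM of the 8 genes with the 5p duplex, 12.9% and 15.8% with the 3p.1 duplex, and 13.4% and 18.3% in control. The other 7 summed to 1140 and 1110 TPM with the 5p duplex, 1119 and 1026 TPM with the 3p.1 duplex, and 1123 and 1127 TPM in control. The 5p duplex overlapped both other groups, while both 3p.1 duplex libraries lay below both control libraries. LAMP1 (318 to 354 TPM over the 6 libraries) and NPC2 (258 to 349 TPM) overlapped in range, as did NPC1 (71.6 to 96.1 TPM) and HEXA (73.7 to 83.5 TPM), which changed places between libraries. SMPD1 (134 to 180 TPM) and ASAH1 (91.4 to 107 TPM) did not overlap, and GLA (31.8 to 39.8 TPM) was lowest throughout.

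The gene model of LIPA encloses interferon-induced genes that were themselves far apart between groups. IFIT2, IFIT3 and IFIT1, antiviral RNA-binding protein genes, lie on the plus strand inside the span of LIPA, which is long because some annotated transcripts start upstream. Of all 8 LIPA transcripts 4 reach IFIT2, 5 reach IFIT3 and 1 reaches IFIT1, and of the 5 coding ones 2, 2 and 1. Annotated exons of LIPA share 65 bases with those of IFIT2 and 0 with those of IFIT1 and IFIT3. The libraries were stranded, per the labels' protocols, but whether counting used strand is not given in the sources used here, so antisense reads in those bases cannot be told apart. IFIT1 stood at 12.4 and 7.54 TPM with the 5p duplex, 8.83 and 13.02 TPM with the 3p.1 duplex, and 80.71 and 327.87 TPM in control. IFIT2 stood at 4.39 and 3.53 TPM with the 5p duplex, 3.86 and 4.32 TPM with the 3p.1 duplex, and 14.54 and 52.09 TPM in control. In contrast to LIPA, these genes were low with both duplexes: with the 3p.1 duplex the means were 5.35% (IFIT1), 12.3% (IFIT2) and 10.0% (IFIT3) of control, where LIPA was at 83.8%. Between the duplexes IFIT1, IFIT2 and IFIT3 stood at 91.3%, 96.8% and 92.1% with the 5p duplex relative to the 3p.1 duplex, and LIPA at 28.8%. LIPA, IFIT1, IFIT2 and IFIT3 were each highest in control replicate 2. The part of these neighbours in the LIPA values was not tested, and the 5p duplex values of LIPA are those that chose the gene.

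**Figure D3:**
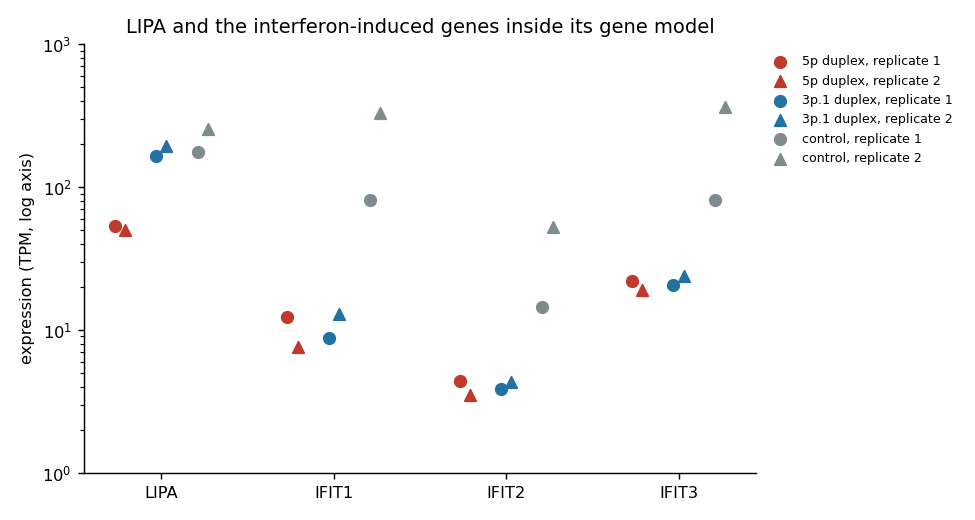
Level in TPM (log axis) of LIPA and of IFIT1, IFIT2 and IFIT3 in each library, with 5p duplex in red, 3p.1 duplex in blue and control in grey; circles are replicate 1 and triangles replicate 2. The IFIT genes are low in all 4 duplex libraries and high in control, whereas LIPA is low in the 5p duplex libraries and at 165.28 TPM or more elsewhere.

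The wider interferon response was likewise low with both duplexes. The 42 genes of a fixed interferon list summed to 1784 and 1820 TPM with the 5p duplex, 1778 and 1733 TPM with the 3p.1 duplex, and 3643 and 8002 TPM in control. Control replicate 2, where LIPA was highest, also had the highest interferon level, whose part in the LIPA values was not tested. All 42 genes had negative log2 fold changes against control with each duplex (medians -1.98 and -1.90; both comparisons share the control libraries), and the median between the duplexes was -0.00097, with 22 below and 20 above 0. Limma called 4 of the 42 lower with the 5p duplex and 0 with the 3p.1 duplex, where 40 had an unadjusted p under 0.05 in each comparison, a difference in calls that was not itself tested. Over all genes 0.425% and 0.00746% were called lower in these comparisons, and 9.16% and 6.86% had an unadjusted p under 0.05. The 4 interferon genes called were IFITM1, a membrane restriction factor (7.30 ± 1.94 TPM with the 5p duplex and 207 ± 162 TPM in control), IFI6, IFI27 and IRF9. All 4 lost the call with no filter on low values (adjusted p = 0.120 to 0.165), in a fit of the 2 groups alone (0.0528 to 0.108), without a variance trend (0.0595 to 0.0713) and without any 1 of the 4 duplex libraries (0.0507 to 0.316). With quantile normalization IFI6 and IFI27 lost the call (limma adjusted p = 0.0567 and 0.0560), while IFITM1 and IRF9 kept it (0.0424 and 0.0407). Without control replicate 2 the LIPA log2 fold change for the 5p duplex against control was -1.74, and without control replicate 1 it was -2.27. Against the 3p.1 duplex, whose interferon sums lay close to and just below those of the 5p duplex, it was -1.77.

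Other genes of the lysosome showed no shift of the LIPA kind. Of 97 genes in 8 fixed lists of lysosomal proteins and their regulators, 96 reached the expression minimum, and GALC was not listed. Limma called 0 of the 96 in each comparison, with 3, 1 and 7 at an unadjusted p under 0.05 for the 5p duplex against control, the 3p.1 duplex against control and the 5p against the 3p.1 duplex, where that share over all genes was 9.16%, 6.86% and 9.34%. Their log2 fold changes with the 5p duplex against control ran from -0.43 to 0.42 with a median of 0.026. LIPA lay outside this range at -2.01, a value that chose the gene, so its place outside is no test. For the 3p.1 duplex against control the 96 had a median of -0.046 with 65 negative, beside -0.033 and 7904 of 13400 over all genes. Between the duplexes the median was 0.053 with 65 positive, beside 0.0055 and 6871 of 13400. These small shifts were not tested as a set. The groups did not overlap for 28, 32 and 37 of the 96 genes in the 3 comparisons, beside the shares over all genes given above.

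Within the sphingolipid hydrolases and their activators, 10 of 11 genes were tested, 6 had positive and 4 negative log2 fold changes with the 5p duplex against control, and the median was 0.014. SUMF1, which activates sulfatases, stood at 51.4 ± 3.67 TPM with the 5p duplex and 45.4 ± 3.69 TPM in control (SD, n = 2 each; log2 0.18). Lysosomal membrane proteins had a median of 0.036 over 13 genes. The largest changes among those with a mean of at least 5 TPM were those of STARD3, a sterol transfer protein of late endosomes, at 28.8 ± 2.46 TPM with the 5p duplex and 34.0 ± 1.68 TPM in control, and MCOLN1, a lysosomal cation channel, at 18.5 ± 1.82 TPM with the 5p duplex and 20.8 ± 0.516 TPM in control. SUMF1, STARD3 and MCOLN1 did not pass the test (limma adjusted p = 0.722, 0.570 and 0.754). Other lysosomal lipid genes had a median of -0.091 over 9 genes, with PLA2G15, a lysosomal phospholipase, at log2 -0.18 and PLBD2, a phospholipase B-like protein gene, at 0.20 (limma adjusted p = 0.834 and 0.846).

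With the 5p duplex against control the median over the 11 proteases was -0.089, with CTSC at 0.31 and LGMN at -0.27, and that over the 14 glycosidases 0.019, with SGSH, an enzyme of heparan sulfate breakdown, at 0.35. Genes that sort enzymes to the lysosome had a median of 0.0023 (9 genes). IGF2R, the large mannose 6-phosphate receptor, stood at 123 ± 1.05 TPM with the 5p duplex and 93.3 ± 20.6 TPM in control (log2 0.42), and SORT1, a sorting receptor, at 68.7 ± 7.05 TPM with the 5p duplex and 59.2 ± 11.5 TPM in control (log2 0.22). Lysosome regulators had a median of 0.038 (14 genes). Among those with a mean of at least 5 TPM the largest changes were those of the transcription factor gene MITF at -0.30 and the mTORC1 subunit gene RPTOR at 0.14. TFEB, which averaged 4.37 TPM, had the lowest value of the list, -0.43, and -0.54 with the 3p.1 duplex against control. Its control libraries stood apart, at 7.47 and 4.01 TPM. Proton pump subunits had a median of 0.052 (16 genes, 13 positive), with ATP6V1D at 0.30 and ATP6V1A at 0.24. Limma called none of these lists' genes, and adjusted p for those named here other than TFEB ran from 0.352 (ATP6V1D) to 0.804 (SORT1).

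Over the genes that take up, store or release cholesterol outside the lysosome the 5p duplex against control gave a median of 0.051 on the log2 scale (16 of 17 genes tested, 0 called by limma, 2 at an unadjusted p under 0.05). NR1H2, a liver X receptor that senses oxysterols, stood at 28.6 ± 0.198 TPM with the 5p duplex and 37.6 ± 5.75 TPM in control (log2 -0.38, adjusted p = 0.396), and NCEH1, a neutral cholesteryl ester hydrolase, at 78.0 ± 12.1 TPM with the 5p duplex and 63.2 ± 13.6 TPM in control (log2 0.31, adjusted p = 0.719). Of 9 genes of cytosolic neutral lipid turnover 6 were tested, with a median of -0.075 and 0 called by limma, 1 at an unadjusted p under 0.05. PNPLA2, the adipose triglyceride lipase, stood at 19.3 ± 0.834 TPM with the 5p duplex and 25.6 ± 5.54 TPM in control (log2 -0.38), and DGAT2, which makes triglycerides, at 4.98 ± 2.09 TPM with the 5p duplex and 6.67 ± 2.13 TPM in control (log2 -0.38); limma adjusted p was 0.538 and 0.831. For the 3p.1 duplex against control the cholesterol list had a median of -0.034 and the neutral lipid list one of -0.042, and between the duplexes these were 0.12 and -0.10. Limma called 0 of the 16 cholesterol genes in these 2 comparisons, with 5 and 3 at an unadjusted p under 0.05, beside 6.86% and 9.34% of all genes. Groups did not overlap for 7 and 11 of the 16, beside 36.3% and 40.4% of all genes. ABCG1, a sterol exporter named after its values were seen, stood at 3.68 and 3.62 TPM with the 5p duplex, 1.24 and 0.81 TPM with the 3p.1 duplex, and 3.61 and 2.11 TPM in control. It was low with the 3p.1 duplex, unlike LIPA, at a log2 difference of 1.21 for the 5p duplex against the 3p.1 duplex (limma adjusted p = 0.145) and -0.91 for the 3p.1 duplex against control (adjusted p = 0.458).

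**Figure D4:**
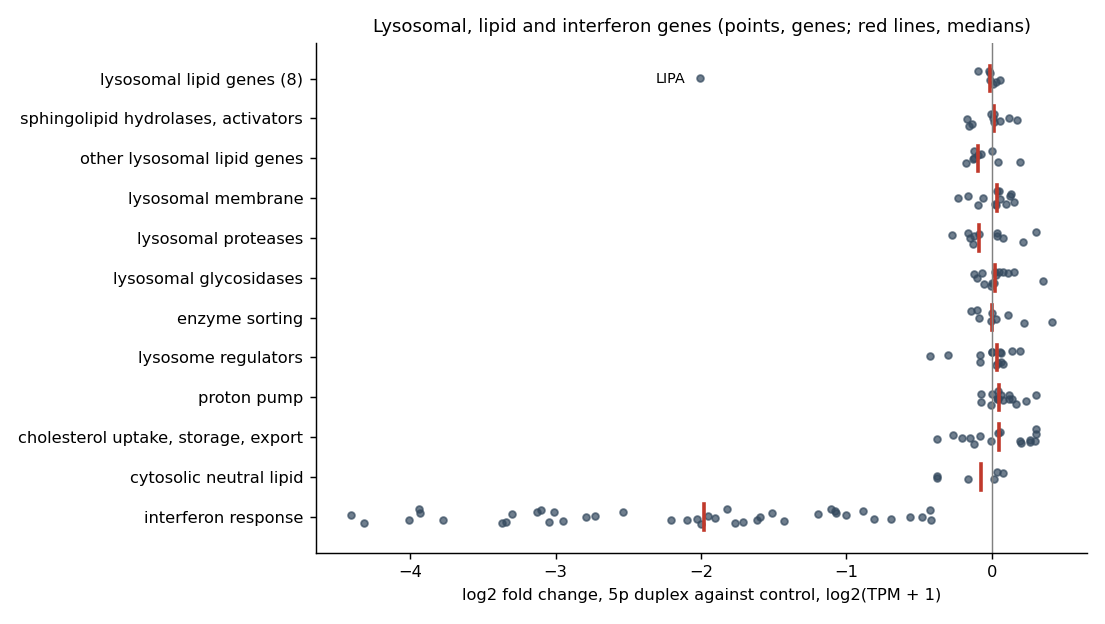
Log2 fold change on the log2(TPM + 1) scale for the 5p duplex against control (horizontal axis) of each gene of the fixed lists; points are genes, spread vertically only to be seen, and red lines are medians. LIPA at -2.01, a value that chose the gene, lies apart from the lysosomal and lipid genes, whose values run from -0.43 to 0.42. It lies within the range of the 42 interferon genes, whose median is -1.98.

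LIPA was set beside genes with the same kind of match to the 5p seed. For the 5p duplex against control the median over the 669 genes whose best match was a 7mer-A1 was -0.048 on the log2 scale, and 61.7% lay below 0, beside -0.021 and 55.3% for the 8809 genes without a match. LIPA had the 3rd lowest value of these 669, above CMPK2 and PLPP1, which are named because they stood below it. For the 5p duplex against the 3p.1 duplex it was the 2nd lowest, above PLPP1, and for the 3p.1 duplex against control the 86th. The LIPA ranks where the 5p duplex was compared rest on the values that chose the gene. CMPK2 was also the lowest of the 669 with the 3p.1 duplex against control, at -2.73. Genes with an 8mer, 7mer-m8 or 6mer as best match had medians of -0.13, -0.088 and -0.053 with the 5p duplex against control, so -2.01 was far below the middle of every class. At or below the LIPA value lay 1 of 330 genes with an 8mer, 2 of 720 with a 7mer-m8 and 3 of 1220 with a 6mer. So did 3 of the 669 with a 7mer-A1, LIPA among them, and 20 of the 8809 genes without a match. For the 5p duplex against the 3p.1 duplex, 1 of the 330, 0 of the 720 and 1 of the 1220 lay there. So did 2 of the 669, LIPA among them, and 0 of the 8809 genes without a match. Between the duplexes the medians were smaller, at -0.079, -0.049, -0.024 and -0.0052 for 8mer, 7mer-m8, 7mer-A1 and 6mer, and 0.0075 for no match. With the 3p.1 duplex against control the 8mer genes also lay lower, with a median of -0.054 and 66.1% below 0, beside -0.027 and 57.6% for genes without a match. SMPD1, with a 6mer, was at -0.0086.

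**Figure D5:**
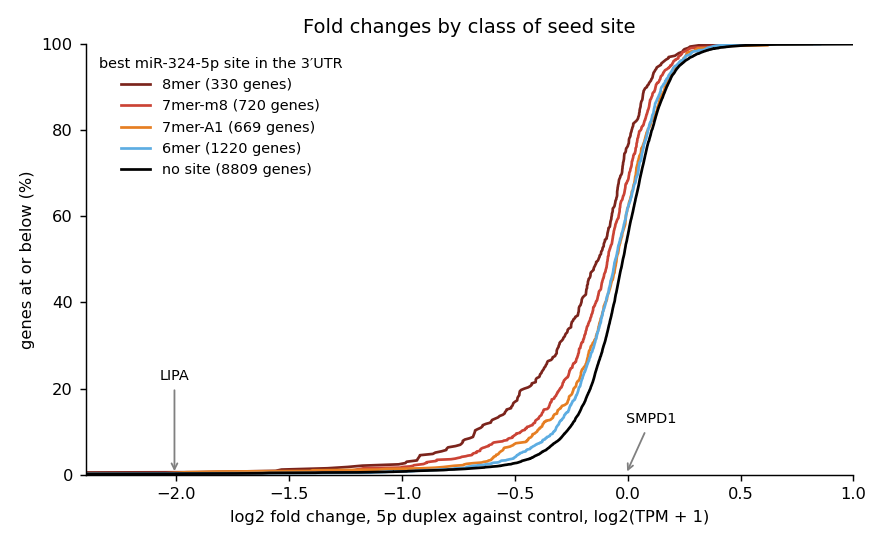
Cumulative share of genes (vertical axis, %) at or below each log2 fold change for the 5p duplex against control (horizontal axis, log2(TPM + 1) scale), by best match to the miR-324-5p seed in the longest 3′UTR; arrows mark LIPA and SMPD1 on the horizontal axis. Median values are -0.13 for 8mer, -0.088 for 7mer-m8, -0.048 for 7mer-A1, -0.053 for 6mer and -0.021 for no match, and LIPA lies at the far low end.

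The genes whose levels followed LIPA most closely across the 6 libraries were SETD5, VANGL1, FOXO3, SASS6, PSME3, LEPROT, SEPT8, RAI14, DESI2 and ZBED1. Their Pearson r with LIPA on the log2(TPM + 1) scale was 0.994 to 0.998, the highest of the 10623 genes that averaged 5 TPM or more. The points share libraries, and 3.09% of those genes had an r of at least 0.9. RAI14 stood at 41.07 and 41.97 TPM with the 5p duplex, 80.83 and 86.41 TPM with the 3p.1 duplex, and 83.64 and 93.38 TPM in control. FOXO3, a forkhead transcription factor gene, stood at 8.87 and 9.11 TPM with the 5p duplex, 14.69 and 15.79 TPM with the 3p.1 duplex, and 15.71 and 18.44 TPM in control. Each of the 10 had, like LIPA, a tight and low pair of 5p duplex values, but smaller changes, of -0.51 (SEPT8) to -1.07 (RAI14) on the log2 scale against control. The low 5p duplex values follow from the choice, since the 10 were picked for likeness to LIPA in these same libraries. Of the 10, 8 (80%) had a 7mer or 8mer match to the 5p seed in the longest 3′UTR, beside 14.6% of all genes, and the other 2 a 6mer. For the 3p seed, 6 of the same 10 genes (60%) had a 7mer or 8mer there, beside 32.1% of all genes. The longest 3′UTRs of the 10 had 1765 (SASS6) to 6845 bases (VANGL1), and neither share was matched for length. With genes picked in this way the shares are a description, and an effect of either seed was not tested. None of the other members was near this group: their r with LIPA ran from -0.54 (ASAH1) to 0.55 (NPC1).

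In promoters, 6 members were matched to RefSeq windows of 250 bases before to 50 after the start (GRCh38.p14); HEXA and ASAH1 were not. CACGTG, the core of the motif that lysosome regulators of the TFEB family are known to bind and the same on both strands, was found in 1 of the 6, LAMP1, and in 7.43% of all 27305 promoters. Over 6 of the fixed lists of lysosomal proteins, 16 of the 51 matched promoters (31.4%) held it. LIPA had none in its window (chromosome 10, 89414630 to 89414929), which says nothing of the factors. That window lies at the most upstream start, and the starts of the other LIPA transcripts were not searched.

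Each library held 13216 to 13536 genes at 1 TPM or more, and its replicate differed by a median of 0.129 to 0.167 on the log2 scale. The mesenchymal markers VIM and CD44 stood at 4788 to 5910 TPM and 708 to 929 TPM, while the glial marker GFAP stood at 0.05 to 0.25 TPM and S100B was not listed. Other neural and glial lineage markers were present, with NES at 90.9 to 133 TPM, OLIG2 at 2.75 to 4.98 TPM and SOX2 at 1.75 to 3.29 TPM. The 8 macrophage and microglia markers summed to 12.2 and 10.2 TPM with the 5p duplex, 11.1 and 12.1 TPM with the 3p.1 duplex, and 11.8 and 10.9 TPM in control, with AIF1 and TYROBP not listed and P2RY12 at 0 in 5 libraries. The 6 epithelial markers, carried by KRT8 and KRT18, summed to 930 and 1055 TPM with the 5p duplex, 1198 and 1359 TPM with the 3p.1 duplex, and 1223 and 1205 TPM in control, with CDH1 at 0.09 to 0.17 TPM. The 5 endothelial markers, carried by TEK, summed to 10.2 and 9.90 TPM with the 5p duplex, 11.3 and 12.2 TPM with the 3p.1 duplex, and 11.4 and 13.7 TPM in control, with PECAM1 at 0.14 to 0.57 TPM. The epithelial and endothelial sums were, like LIPA, lowest in the 5p duplex libraries, and their part in the LIPA values was not tested. Within the epithelial list CLDN4 went the other way, at 21.77 and 27.38 TPM with the 5p duplex, 11.11 and 10.88 TPM with the 3p.1 duplex, and 12.41 and 13.98 TPM in control, and EPCAM averaged 2.45 TPM with the 5p duplex, 1.41 TPM with the 3p.1 duplex and 2.19 TPM in control. CLDN4 was called higher by limma between the duplexes (log2 1.08), 1 of 5 epithelial genes tested, beside 0.0821% of all genes. That call was lost with no filter on low values (limma adjusted p = 0.148), in a fit of the 2 groups alone (0.0865) and without a variance trend (0.0717). The 6 neuronal markers summed to 22.4 to 26.2 TPM, with SNAP25 at 0 in 5 libraries. All 6 libraries came from the A172 line. In such bulk samples, fewer cells with a given RNA and less of that RNA per cell cannot be told apart.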

How the data were processed

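Per the labels' protocols, the 6 A172 libraries were oligo-dT enriched, stranded and sequenced from both ends (100 bp). The authors deposited TPM per gene symbol for each library; RSEM and GRCh38 are named per the submitters' processing notes, with no version; for aligner and annotation, the sources used here give nothing. Unlisted symbols counted as 0, and rows of a repeated symbol (21 to 23 symbols a library) were added up.

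Here, log2(TPM + 1) was fitted with limma 3.58.1 in R 4.3.3: group means of all 6 libraries, variance trend, only genes averaging 1 TPM or more, Benjamini-Hochberg adjustment over 13400 genes, two-sided, called at an adjusted p under 0.05 (3 residual and 3.38 prior degrees of freedom). An exact permutation test of 2 against 2 libraries cannot go below p = 0.333. The fit was tested on simulated data. Seed matches were sought in the longest 3′UTR of coding transcripts with a stop codon (GENCODE 29). Named genes were all members, the 2 largest changes with the 5p duplex (mean of at least 5 TPM) and all called genes of each list, and the 10 genes most correlated with LIPA. Some genes that this rule names are not reported here. The members and lists were chosen with earlier results of these data known. Alternatives were another pseudocount, no filter, only the compared groups, no variance trend, quantile normalization, a term for replicate number, leaving out each library, and any annotated 3′UTR.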

Additional observations from a re-analysis of the deposited data

How the results depend on the processing

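The LIPA values kept their sign under all alternatives where the 5p duplex was compared, from -2.27 to -1.74 against control and -1.88 to -1.66 against the 3p.1 duplex when 1 library was left out. The count of members called by limma was 0 with no filter on low values in both of these comparisons and 0 without a variance trend between the duplexes (1, 2 and 1 members at an unadjusted p under 0.05), and it ran from 0 to 1 in both when 1 library was left out. Over all genes, the 5p duplex against control gave 9 calls with no filter, 11 in a fit of those 2 groups alone and 33 without a variance trend, against 62; 0 (1444 at an unadjusted p under 0.05) and 18 for the 3p.1 duplex against control with no filter and in a fit of those groups alone, against 2; and 5, 19 and 5 between the duplexes in the first 3 settings, against 58. Leaving out 1 library gave 7 to 128, 5 to 94 and 7 to 26 genes; such fits take the lone library of a group to vary like the others. The limma adjusted p of LIPA for the 3p.1 duplex against control was 0.455 to 1 over the alternatives. The cause was not tested.

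With quantile normalization, GLA, SMPD1 and LAMP1 turned sign for the 5p duplex against control (0.033, 0.00054 and 0.0034), none of them called. Leaving out 1 library turned the sign of uncalled values: for the 5p duplex against control NPC1 (-0.30 to 0.12), NPC2 (-0.096 to 0.11), GLA (-0.089 to 0.056), HEXA (-0.034 to 0.093), SMPD1 (-0.22 to 0.20) and LAMP1 (-0.050 to 0.026); for the 3p.1 duplex against control LIPA (-0.50 to 0.033), NPC1 (-0.13 to 0.29), NPC2 (-0.33 to 0.034), HEXA (-0.084 to 0.044) and SMPD1 (-0.050 to 0.0081); and between the duplexes NPC2 (-0.025 to 0.33), HEXA (-0.014 to 0.11) and SMPD1 (-0.20 to 0.22). With any annotated 3′UTR, 2 members (LIPA and NPC1) in place of 1 had a 7mer or 8mer match to the 5p seed.

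The labels tie replicate numbers to no batch. Differences of replicate 2 from replicate 1 correlated across genes at 0.265 to 0.383 between groups, and a replicate block gave 367, 30 and 278 called genes in the 3 comparisons, with the same members called as without it.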
